A study of Mus musculus with 38 samples.

Results

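The regions described here are the CTCF peaks that lay at promoters and were present both before and after Notch stimulation. They were chosen from the CTCF list of unstimulated lymphoid progenitors (LPs) as peaks that the authors' annotation places at a promoter and that share at least 1 bp with a CTCF peak of Phase 1, the stage that follows Notch stimulation. Of 45388 CTCF peaks in LP, 3871 were at a promoter, and 3275 of these met both conditions (7.22% of the LP list). They are called promoter CTCF peaks below.

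The chromatin came from Cas9-LP lines, lymphoid progenitor lines made from fetal liver cells of mice that were Ebf1-deficient and carried a Rosa26-Cas9 knock-in, so that every group shares both alleles. Loss of Ebf1, a factor needed for the B lineage, holds such cells as progenitors, and they are a culture model rather than cells taken from a thymus. LP cells were grown on OP9 stroma and Phase 1 cells on OP9-DLL4, stroma that presents the Notch ligand DLL4, and a later stage on the same stroma is called Phase 2. CTCF, RUNX1, p300 and Med12 were profiled before and after stimulation by chromatin immunoprecipitation and sequencing. Notch1-IC, the released intracellular part of Notch1, was profiled at all 3 stages. All cultures held SCF, Flt3L and IL-7, on stroma treated with mitomycin C. Sorted cells that carried retroviral guides against Ctcf in LP (sgCTCF), or against Cbfb or Med12 in Phase 1 (sgCbfb, sgMed12), were set beside control guides (sgCont). Each of the 17 lists combines 2 replicates, so no spread between cultures can be given. The intervals below are 95% intervals over peaks or genes (Wilson for shares, Newcombe for differences), they cover counting error only, and peaks are not replicates.

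CTCF is a zinc finger protein that binds a long DNA motif and halts cohesin, the ring complex that extrudes chromatin loops. It is best known at the borders of chromatin domains, but it also binds near transcription starts. RUNX1, which binds DNA together with Cbfb, is required for blood progenitors and for the T lineage. Med12 belongs to the kinase module of Mediator, which links transcription factors to RNA polymerase II, and p300 is a histone acetyltransferase found at active promoters and enhancers.

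The sequences under a few of these peaks show the CTCF motif in its surroundings. The most constant letters of the CTCF motif, CCA, AG and GGC with 2 free letters between each, were searched for as a string on both strands in the 200 bp around each peak centre. Shown are 60 bp around it for loci with the string among the highest LP CTCF scores and among the highest factor scores of only 1 stage. Each is read 5′ to 3′ along the strand of the string, from the GRCm38 (mm10) genome, with the string in capitals. The 6 loci lie at chr2:119288639-119288698 (Vps18), chr4:126321724-126321783 (Adprhl2), chr8:71464765-71464824 (Mrpl34), chr2:29619662-29619721 (Rapgef1), chr10:80434396-80434455 (Tcf3) and chr6:71441096-71441155 (Rmnd5a).
Vps18: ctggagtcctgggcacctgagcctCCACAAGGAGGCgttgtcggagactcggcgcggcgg
Adprhl2: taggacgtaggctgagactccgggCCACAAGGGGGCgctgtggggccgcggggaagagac
Mrpl34: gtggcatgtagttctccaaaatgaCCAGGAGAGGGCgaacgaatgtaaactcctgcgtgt
Rapgef1: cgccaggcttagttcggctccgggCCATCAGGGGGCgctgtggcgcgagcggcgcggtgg
Tcf3: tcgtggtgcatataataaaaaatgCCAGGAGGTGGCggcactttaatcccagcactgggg
Rmnd5a: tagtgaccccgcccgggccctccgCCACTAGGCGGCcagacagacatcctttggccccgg
The string was on the plus strand at Rapgef1 and Tcf3 and on the minus strand at the other loci. It ran in the direction of the gene at Adprhl2, Rapgef1 and Rmnd5a, and against it at Vps18, Mrpl34 and Tcf3. Starts are not marked in the sequences. The CTCF centre lay 764 bp before the start at Tcf3, 460 bp at Rmnd5a and 68 to 152 bp at the other loci.

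The CTCF values of these regions only describe how they were chosen. The promoter CTCF peaks had a median score of 103 in LP and 120 in Phase 1, whereas the 596 LP promoter CTCF peaks with no Phase 1 CTCF peak had a median of 28.1. The score is the authors' normalized peak score, and its scale is not stated in the file headers, so it was used only within a list. Promoter peaks were found in both stages in 84.6% of cases (interval 83.4% to 85.7%), against 37780 of 41517 peaks outside promoters (91.0%) and 90.5% of all LP CTCF peaks. The smallest overlap that admitted a region was 2 bp, 13 regions shared under 100 bp, and the median overlap was 401 bp, the full width of an LP CTCF peak. Just outside the rule, the closest Phase 1 peak lay 18 bp away, and 9 of the 596 had one within 200 bp. The regions had a gene symbol in 3271 cases, for 3246 genes, of which 24 had more than 1 region. A protein-coding transcript accession was given for 2983 and a non-coding one for 292. Of the 3261 with a known start, 2911 (89.3%) had their centre before it, at a median of 173 bp before the start. The promoter annotation that chose the regions reaches much further before a start than after it. This placement therefore follows largely from the choice.

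Promoters of marker genes were read as a check on the labelled cells. Flt3 and Rag1, progenitor genes, had peaks of RUNX1, Med12 and p300 in both stages, Kit had all of these but LP Med12, Ptprc had only LP p300, and Il7r had none. Of the B lineage genes, Pax5 and Cd79a had none of these peaks, whereas Ebf1 itself had all 6. Of the T lineage genes, Cd3e had RUNX1 and Med12 peaks in Phase 1 only, Il2ra had Med12 in LP and all 3 factors in Phase 1, and Bcl11b had p300 in LP and all 3 factors in Phase 1. Of 5 OP9 stroma genes, 4 had no peak, and Pdgfrb had RUNX1 in both stages.

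RUNX1, Med12 and p300 each overlapped most of the promoter CTCF peaks, in LP as in Phase 1. In LP, RUNX1 peaks overlapped 2000 of the 3275 regions (61.1%, interval 59.4% to 62.7%), against 16.4% of all LP CTCF peaks and 11.3% of the 37780 CTCF peaks of both stages outside promoters. Med12 overlapped 2002 of them in LP (61.1%), against 15.6% of all and 10.3% of those outside promoters. For p300 in LP the number was 2075 (63.4%), against 18.5% of all and 13.4% outside promoters.

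Phase 1 gave slightly lower shares with longer factor lists. Peak widths in LP and Phase 1 also differed, at 341 and 329 bp for RUNX1, 355 and 327 bp for Med12, and 329 and 339 bp for p300. RUNX1 overlapped 1918 regions (58.6%) in Phase 1, against 13.3% of all LP CTCF peaks and 8.05% outside promoters. Med12 overlapped 1841 (56.2%), against 12.7% and 7.63%, and p300 overlapped 1957 (59.8%), against 16.5% and 11.8%. The difference between promoter and other CTCF peaks ran from 48.0 percentage points for p300 in Phase 1 (interval 46.3 to 49.7) to 50.8 points for Med12 in LP (49.1 to 52.5). The rule used CTCF and the annotation but none of these 3 factors. Since promoters hold a large part of every factor list (19.2% of Phase 1 p300 peaks to 29.5% of LP Med12 peaks), the difference sets promoters beside other places and is not shown to be particular to CTCF.

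**Figure D1:**
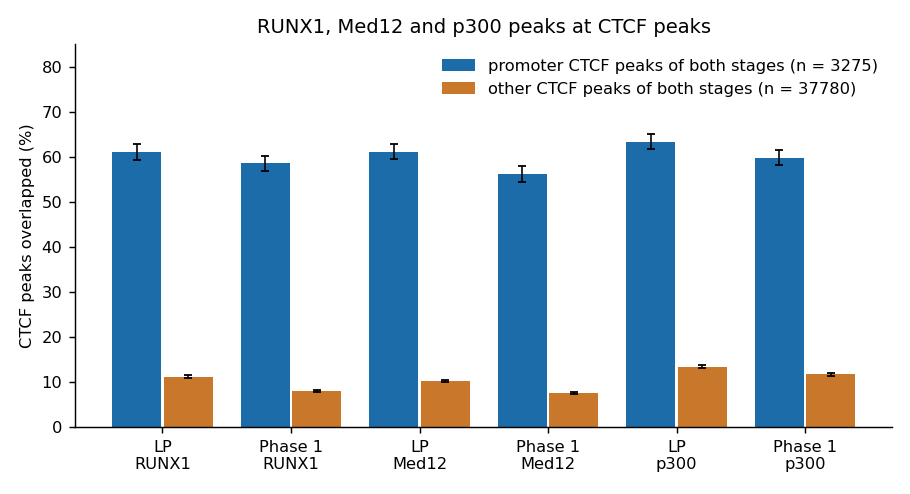
Share of CTCF peaks overlapped by a RUNX1, Med12 or p300 peak of LP or Phase 1, for the 3275 promoter CTCF peaks and the 37780 other CTCF peaks of both stages (bars, with 95% Wilson intervals). The promoter shares lie between 56.2% and 63.4%, and the others between 7.63% and 13.4%.

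The 6 lists, that is 3 factors in 2 stages, fell on the promoter CTCF peaks in an all-or-none way. All 6 overlapped 1612 regions (49.2%, interval 47.5% to 50.9%), against 9.77% of all LP CTCF peaks and 4.99% of the CTCF peaks of both stages outside promoters. None overlapped 984 regions (30.05%, interval 28.5% to 31.6%), against 76.7% and 81.5%. The remaining 679 regions (20.7%) were spread evenly over the numbers between, from 123 regions with 4 lists to 175 with 5. The 6 lists share the same promoters in large part, so their joint presence is counted here and not tested.

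**Figure D2:**
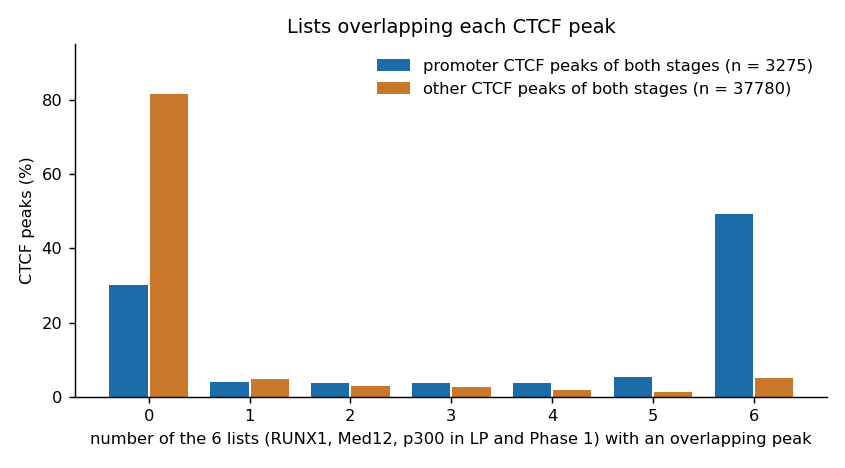
Number of the 6 lists (RUNX1, Med12 and p300, LP and Phase 1) with a peak overlapping each CTCF peak, as the share of the 3275 promoter CTCF peaks and of the 37780 other CTCF peaks of both stages. Promoter CTCF peaks stand at both ends, with 30.05% at 0 lists and 49.2% at 6, whereas the others stand mainly at 0 (81.5%).

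Distance to the start separated these classes. The CTCF centre lay at a median of 117 bp before the start where all 6 lists were present and 521 bp before it where none was. It was within 200 bp of the start in 1126 of 1606 regions with all 6 lists (70.1%) and in 294 of 979 with none (30.0%), a difference of 40.1 points (interval 36.4 to 43.6). The factor peaks themselves were placed alike whatever the list. Their centres lay at medians of 66 to 72 bp before the start and 73 to 83 bp downstream of the CTCF centre along the gene. The lower quartiles of the distance from the CTCF centre were -23.0 to -11.5 bp, on its upstream side. Of the factor centres, 44.66% to 49.95% lay within 100 bp of the CTCF centre. The regions were chosen mostly before starts, so this order follows in part from the choice. Non-coding transcripts made up 13.4% of the regions with none of the lists and 6.27% of those with all 6 (difference 7.15 points, interval 4.78 to 9.67).

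**Figure D3:**
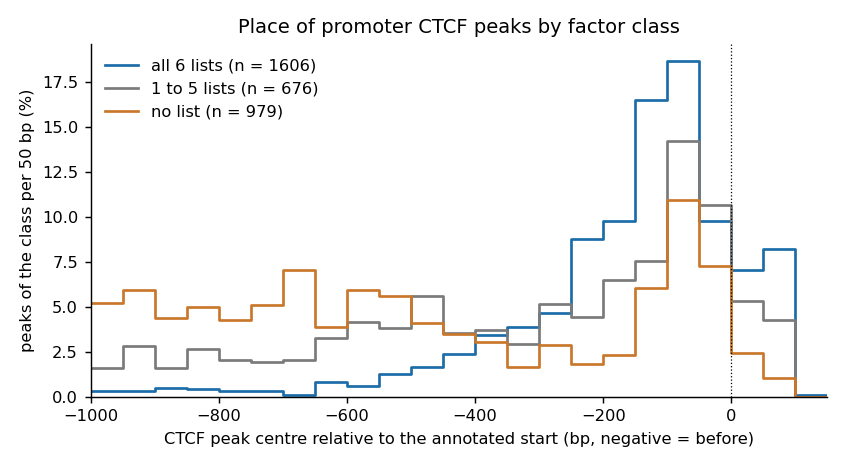
Position of the CTCF peak centre relative to the annotated start, in 50 bp bins, for promoter CTCF peaks with all 6 lists (n = 1606), with 1 to 5 lists (n = 676) and with none (n = 979). Peaks with all 6 lists gather close to the start (median -117 bp). Those without a list extend to 1 kb before it (median -521 bp), about as far as the promoter annotation reaches.

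A CTCF peak without an overlapping factor often had factors next to it. Of the 984 regions with none of the lists, 500 (50.8%) had a factor peak within 1000 bp of the CTCF peak. Of the 979 with a known start, 307 (31.4%, interval 28.5% to 34.3%) had peaks of all 6 lists within 200 bp of that start. Counted within 1000 bp, all 6 lists were present at 2273 regions (69.4%), against 15.8% of all LP CTCF peaks, and none at 484 (14.8%), against 68.2%. These 484 lay closer to their start (median 267 bp before it) than the 500 with a factor nearby (640 bp before it). Non-coding transcripts made up 89 of the 484 (18.4%) and 43 of the 500 (8.60%).

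The relation to CTCF score was uneven. In the lowest of 5 equal classes of LP CTCF score (15.1 to 45.4), all 6 lists were present at 249 of 655 regions (38.02%), and in the highest (233 to 961) at 440 of 655 (67.2%). The classes between gave 54.2%, 40.5% and 46.3%, so the share did not climb step by step. The share with none of the lists fell from 44.7% in the lowest class to 10.7% in the highest, through 29.5%, 38.8% and 26.6%.

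The 10 regions with the highest LP CTCF scores all had the 6 factor peaks. The highest was at Hjurp, the chaperone of the centromeric histone CENP-A, with CTCF scores of 961 in LP and 1075 in Phase 1. Its RUNX1 score was 358 in LP and 435 in Phase 1, its Med12 score 341 and 381, and its p300 score 574 and 610. Notch1-IC peaks also overlapped it, with scores of 34.5 in LP and 26.1 in Phase 1. The others were at Sh3gl1 (endophilin A2, an endocytic protein), Vps18 (a vesicle tethering subunit), the non-coding Snhg16, Trp53 (the tumor suppressor p53), Adprhl2 (an ADP-ribose hydrolase), Mrpl34 (a mitochondrial ribosomal protein), Pip5k1c (a lipid kinase), Rapgef1 (an exchange factor for Rap) and Kdm3b (a histone demethylase). Their LP CTCF scores ran from 575 at Kdm3b to 686 at Sh3gl1, and 4 of these 9 carried the CTCF string within 100 bp of the centre. Trp53 differed in place, with the CTCF centre 894 bp before the start. In the other 8 it lay 68 to 292 bp before it.

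The 3 highest CTCF scores without an overlapping factor peak were at Chp1 (a calcineurin-like calcium-binding protein; 477 in LP), Faap20 (a Fanconi anemia core protein; 413) and the microRNA gene Mir2861 (361). Their centres were 599, 518 and 744 bp before the start. At each of them all 3 factors had peaks close by in both stages, at distances of 107 to 182 bp from the CTCF peak at Chp1, 52 to 181 bp at Faap20 and 3 to 394 bp at Mir2861. These loci thus illustrate neighboring rather than missing factors.

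Most factor peaks at promoter CTCF peaks were present in both stages, and where only 1 stage had a peak it was more often LP. RUNX1 overlapped 1832 regions in both stages, 168 in LP only and 86 in Phase 1 only. Med12 gave 1757, 245 and 84, and p300 gave 1862, 213 and 95. The Phase 1 only portion of the one-stage regions was 33.9% for RUNX1 (interval 28.3% to 39.9%), 25.5% for Med12 (21.1% to 30.5%) and 30.8% for p300 (26.0% to 36.2%). Over all LP CTCF peaks the same portion was 24.4%, 26.2% and 35.9%, over the factors' own promoter peaks 57.1%, 50.9% and 54.9%, and over all their sites 68.6%, 71.9% and 73.2%. One-stage peaks had low scores. In the LP list, RUNX1 peaks had a median of 34.8 where only LP had one and 90.1 where both stages did, and in the Phase 1 list the medians were 30.2 and 87.8.

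Set against CTCF peaks outside promoters, the Phase 1 only portion of RUNX1 was higher by 10.3 points (interval 4.47 to 16.5; 86 of 254 against 540 of 2291). That of p300 was lower by 7.59 points (interval of the difference -12.8 to -1.92), and that of Med12 differed by -2.01 points (interval -6.81 to 3.29). The RUNX1 difference was -0.951 points with a minimum score of 30, and the p300 difference was 2.90 points with lists of equal length, so neither direction held under every setting. The Med12 difference ran from -11.0 to 7.28 points over the settings tried.

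Many one-stage regions had a peak of the other stage just outside them. A peak of the other stage lay within 1000 bp in 64 of the 168 regions with RUNX1 in LP only and in 30 of the 86 with RUNX1 in Phase 1 only. For Med12 the numbers were 84 of 245 and 27 of 84, and for p300 they were 87 of 213 and 37 of 95. Counted within 1000 bp on both sides, RUNX1 was in Phase 1 only at 101 of 229 regions (44.1%, interval 37.8% to 50.6%), against 35.8% of all LP CTCF peaks of that kind, so that the lean towards LP was no longer beyond counting error. Med12 was in Phase 1 only at 93 of 286 (32.5%, interval 27.3% to 38.2%), against 38.1%, and p300 at 95 of 249 (38.2%, interval 32.3% to 44.3%), against 47%, and both still leaned towards LP.

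The one-stage regions with the highest factor scores show this. Of the 18 named by score, 3 for each factor and stage, 14 had a peak of the same factor and the other stage within 200 bp of the CTCF peak. In LP only, RUNX1 was highest at Amz2 (a metalloprotease; score 403), Napa (the fusion protein alpha-SNAP; 313) and Ubtd1 (302). Their Phase 1 RUNX1 peaks lay 1, 28 and 110 bp outside the CTCF peak, with scores of 408, 359 and 348. In Phase 1 only, high scores were found at Ripor1 (170) and Cep350 (a centrosomal protein; 165). The LP RUNX1 peaks were 1395 and 22 bp away.

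Med12 was highest in LP only at Ap2a1 (a clathrin adaptor subunit; 522), Tbc1d10b (a Rab GTPase-activating protein; 484) and Ppp1r10 (a nuclear regulator of protein phosphatase 1; 417), with Phase 1 Med12 peaks 44, 30 and 141 bp away. In Phase 1 only it was highest at Rnu11 (the U11 small nuclear RNA; 409), Tcf3 (the E protein E2A; 265) and Klf13 (221), with LP Med12 peaks 22, 125 and 210 bp away. For p300 the LP only regions were at Ap1m1 (a clathrin adaptor subunit; 253), Pou2f1 (Oct-1; 224) and the non-coding Gm14634 beside Med14 (215), with Phase 1 p300 peaks 22, 152 and 61 bp away. In Phase 1 only they were at Rmnd5a (a ubiquitin ligase subunit; 367), Mef2d (292) and Mlf2 (286). The LP p300 peak was 12 bp away at Rmnd5a and 107 bp away at Mlf2, but 2882 bp away at Mef2d.

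Regions whose other-stage peak was more than 1000 bp away were therefore also read, a selection made after these values were seen. There were 104 for RUNX1 in LP only and 56 in Phase 1 only, 161 and 57 for Med12, and 126 and 58 for p300. Their median scores were low, at 23.75 and 23.35 for RUNX1, 32.9 and 24.2 for Med12, and 26.35 and 28.35 for p300. The lowest score kept in the lists was 15. The genes named below are among the 3 highest of a set, and such sets were not counted over other CTCF peaks. Patz1, a zinc finger factor of lymphoid cells, had all 3 factors in LP (RUNX1 108, Med12 140, p300 125) and none in Phase 1, with CTCF scores of 239 and 291. By overlap, all 3 factors were in LP only at 44 of the 3275 regions (1.34%) and in Phase 1 only at 13 (0.397%). These patterns were not counted over all LP CTCF peaks, so they are not shown to be particular to these regions. Ripor1 had RUNX1 (170) and Med12 (145) in Phase 1 only, with no p300 peak at the region in either stage. Mef2d, a transcription factor, kept RUNX1 (298 in LP, 341 in Phase 1) and Med12 (254 and 172) and had p300 in Phase 1 only (292). Tgfb1, the cytokine TGF-β1, had the same form, with RUNX1 at 119 and 170, Med12 at 160 and 120, and p300 at 178 in Phase 1 only.

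Other genes of this kind included Rpl36, a ribosomal protein gene with RUNX1 in LP only (82.5) and p300 in both stages (89.1 and 64.8). Zfp598, which acts on collided ribosomes, kept RUNX1 (131 and 115) and p300 (211 and 232) and had Med12 in LP only (146). The histone gene H4c6 kept p300 (153 and 117) and had Med12 in Phase 1 only (119). Il18r1, a cytokine receptor gene of lymphocytes, kept RUNX1 (58.5 and 82.0) and had Med12 in Phase 1 only (69.5). By overlap it had p300 in LP only (60.2). Such opposite patterns were rare by overlap. Med12 was in Phase 1 only and p300 in LP only at 3 regions, and the reverse held at 4. Both were in LP only at 94 regions and in Phase 1 only at 28. These pairs were likewise not counted over all LP CTCF peaks, so they are not shown to be particular to the regions.

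Genes of the T lineage had a CTCF peak of both stages about as often as all genes. Of 46 genes of T cell development and Notch signaling, 8 had a CTCF peak of both stages from 1 kb before to 100 bp after the start of the gene (17.4%, interval 9.09% to 30.7%), against 15.6% of 21938 protein-coding genes, and at 6 the peak was one of the regions described here. Thy1, a surface protein of T cells, had all 6 factor peaks, with RUNX1 at 67.7 in LP and 106 in Phase 1, Med12 at 49.1 and 55.8, and p300 at 109 and 136. Its CTCF scores were low (33.3 and 34.8), and its centre lay 69 bp after the start. Lat, the adaptor of the T cell receptor, also had all 6 (RUNX1 168 and 205, Med12 139 and 129, p300 214 and 154), with CTCF at 33.5 and 27.4. Notch1-IC peaks overlapped it in LP (16.1) and Phase 2 (16.8).

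Bcl11b, the transcription factor of T lineage commitment, was the one of the 6 with a change in 2 factors. Its region lay 758 bp before the start, with CTCF scores of 100.6 in LP and 120 in Phase 1. RUNX1 (26.5) and Med12 (28.4) overlapped it in Phase 1 only, where the nearest LP peaks of these factors were 4872 and 4863 bp away. The p300 peak was present in both stages (27.4 and 27.5). In each of these lists the lowest score kept was 15. Hhex, a homeobox gene of progenitors, had all 6 factor peaks (RUNX1 101 and 86.9), and Tcf3 had RUNX1 in both stages (292 and 369). Tox, a regulator of T cell development, had CTCF at 195 and 209 without an overlapping factor, and its 6 nearest factor peaks were 253 to 308 bp away.

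The list of CTCF and cohesin genes often had such a promoter. Of the 18 genes listed, which also take in Yy1, Zfp143 and Maz, 9 had a CTCF peak of both stages (50.0%, interval 29.03% to 71.0%). Rad21, Stag1, Wapl, Mau2, Cdca5, Esco2, Hdac8, Zfp143 and Maz did not. All 9 with CTCF had all 6 factor peaks within the same promoter window. So did 15 of the 18 whether or not CTCF was there (83.3%) and 64.2% of all promoters with CTCF. The regions described here were found at Smc1a and Smc3 (the cohesin ring), Stag2 (its accessory subunit), Nipbl (the loader), Pds5a and Pds5b (regulators of cohesin on chromatin), Esco1 (the acetyltransferase of Smc3) and Yy1. Of these 8 regions, Pds5a, Pds5b, Stag2 and Esco1 were overlapped by all 6 lists. At Smc3 only Phase 1 RUNX1 was missing, and that peak lay 3 bp outside. Nipbl and Smc1a had no overlapping factor, with the nearest 448 and 54 bp away, and the CTCF centres 997 and 537 bp before the start.

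Genes of Mediator and p300 had a CTCF peak of both stages at 10 of 36 (27.8%, interval 15.9% to 44.0%). All 10 had the 6 factor peaks in the promoter window, against 29 of the 36 (80.6%). Over all protein-coding genes, 2191 of the 7686 promoters with the 6 factor peaks had a CTCF peak of both stages. The share of a group is therefore not separated from its share of promoters with factors. At the regions of Med4, Med13, Med13l, Med18, Med20, Med23 and Med27 all 6 lists overlapped. Med4, a subunit of the middle module, had the highest CTCF score of these (505 in LP and 683 in Phase 1), with RUNX1 at 103 and 105 and Med12 at 79.7 and 52.0. Med19 and Ccnc, the cyclin of the kinase module, had factors only beside the CTCF peak, 7 to 46 bp and 205 to 244 bp away. At Med14 the 3 LP factor peaks overlapped and the Phase 1 peaks lay 54 to 80 bp outside.

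**Figure D4:**
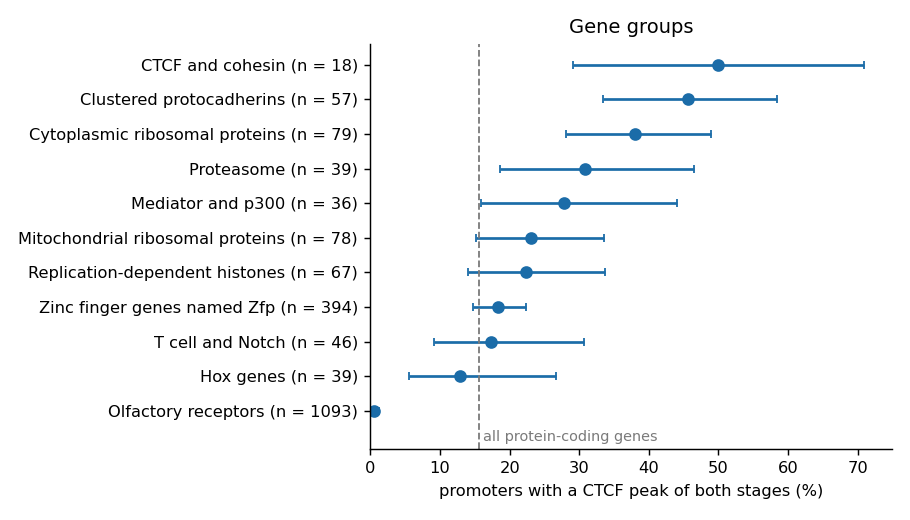
Share of the genes of each group with a CTCF peak of both stages from 1 kb before to 100 bp after the start (points, with 95% Wilson intervals). The dashed line is the share over all 21938 protein-coding genes (15.6%), of which 52.9% had none of the 6 lists at the promoter. The groups run from 0.549% of olfactory receptors to 50.0% of the CTCF and cohesin list.

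Groups of genes by name gave a wide range. Clustered protocadherins, whose promoters are a classical set of CTCF sites, had a CTCF peak of both stages at 26 of 57 (45.6%, interval 33.4% to 58.4%), and 25 of these 26 had no RUNX1, Med12 or p300 peak of either stage, as did 55 of all 57 (96.5%). Cytoplasmic ribosomal protein genes had one at 30 of 79 (37.97%, interval 28.1% to 49.0%), and 28 of these 30 had all 6 factor peaks, as did 67 of all 79 (84.8%). The factor state at the promoters with CTCF was thus that of the whole group in both cases. Proteasome genes had one at 12 of 39 (30.8%), mitochondrial ribosomal protein genes at 18 of 78 (23.1%), replication-dependent histone genes at 15 of 67 (22.4%) and zinc finger genes named Zfp at 72 of 394 (18.3%). Hox genes had one at 5 of 39 (12.8%), none of them with all 6 factor peaks, and olfactory receptor genes at 6 of 1093 (0.549%). Lists of genes were described by these counts and not tested as sets.

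Gene promoters with and without CTCF were also set side by side, without regard to whether a promoter was active, so CTCF is not separated from promoter activity. Among 3412 protein-coding promoters with a CTCF peak of both stages, 2547 had RUNX1 in LP (74.7%), against 5519 of 17362 promoters with no CTCF peak of either stage (31.8%) and 41% of all. In Phase 1 RUNX1 was at 2492 (73.0%) and 5639 (32.5%), and 41.3% of all. The other lists stood at 40.6% (LP Med12), 42.1% (LP p300), 40.1% (Phase 1 Med12) and 42.5% (Phase 1 p300) of all promoters. The differences over the 6 lists ran from 39.3 points for Phase 1 Med12 (interval 37.6 to 41.0) to 44.8 points for LP p300 (43.2 to 46.3). All 6 lists were absent from 590 promoters with CTCF (17.3%) and from 10858 without it (62.5%), against 52.9% of all, and all 6 were present at 2191 (64.2%) and 4662 (26.9%), against 35% of all.

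The comparison was also made among promoters that already had p300 or Med12. The lists share most of their promoters, so these shares were high without CTCF too and left little room for a difference. RUNX1 in LP was then at 2530 of 2798 promoters with CTCF (90.4%) and 5450 of 6383 without (85.4%), a difference of 5.04 points (interval 3.61 to 6.40), and in Phase 1 the difference was 1.52 points (0.0555 to 2.93). The Phase 1 differences for Med12, at promoters with p300, and for p300, at promoters with Med12, were 1.07 points (-0.462 to 2.54) and 0.263 points (-0.981 to 1.44). In LP they were 5.48 points (4.07 to 6.83) and 3.96 points (2.90 to 4.96). The difference between stages was not tested, as both share the same promoters.

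Paired starts, where 2 protein-coding genes point away from each other within 1 kb, were also counted. They made up 330 of 3412 promoters with CTCF (9.67%) and 1006 of 17362 without (5.79%), a difference of 3.88 points (interval 2.87 to 4.97). Among promoters with all 6 factor peaks the order was turned, with 296 of 2191 with CTCF (13.5%) and 819 of 4662 without (17.6%), a difference of -4.06 points (-5.83 to -2.22).

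The CTCF string was less frequent at promoter CTCF peaks than at the others. It was present in the 200 bp of 634 of 3275 regions (19.4%, interval 18.0% to 20.8%), against 17682 of 37770 CTCF peaks of both stages outside promoters (46.8%), a difference of -27.5 points (-28.9 to -26.0). Windows 2 kb to each side held it in 1.893% (promoter CTCF peaks) and 1.962% (other CTCF peaks) of cases, and windows of the same length centered 100 bp before the starts of all 21938 protein-coding genes in 1.91%. Where the string was present it lay close to the summit, within 50 bp of the centre in 595 of 634 regions (93.8%). With 1 mismatch allowed it was found in 2020 of the regions (61.7%) and 84.9% of the others, a difference of -23.2 points (-24.9 to -21.5). With the third letter (A) left free, a choice made after seeing the data, it was found in 38.7% of the regions and 55.0% of the others.

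Regions without factors had the string more often. It was present in 318 of 984 with none of the lists (32.3%) and 190 of 1612 with all 6 (11.8%), a difference of 20.5 points (interval 17.2 to 23.9), and this comparison was chosen after seeing the data. With factors counted within 1000 bp the shares were 31.8% and 16.3%, 15.5 points apart (11.3 to 20.1). Base composition differed in the same split. The median GC content of the 200 bp was 64.5% with all 6 lists, 51.5% with none and 47.0% at CTCF peaks outside promoters. Windows with GC above 50% and an observed to expected CpG ratio above 0.6 made up 75.7%, 24.0% and 4.21%, and 39.4% of all protein-coding promoters. Their part in the difference of the string was not tested.

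**Figure D5:**
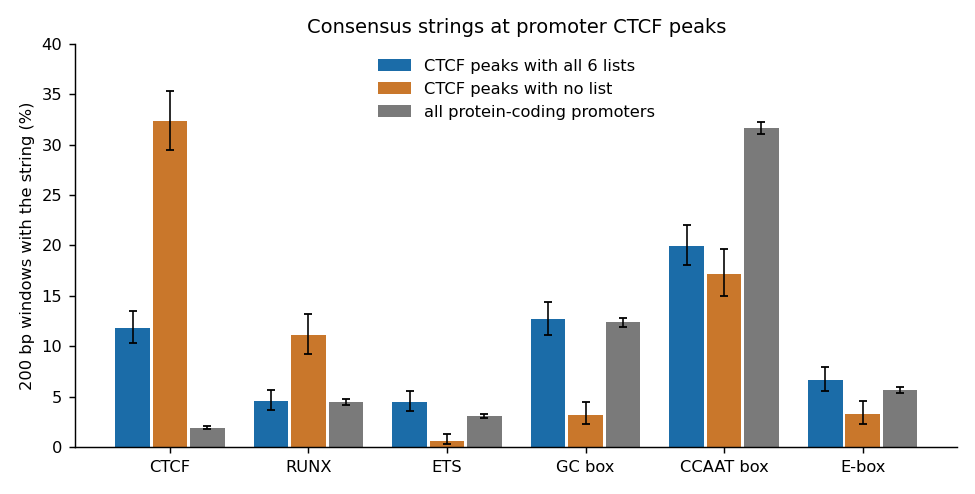
Share of 200 bp windows with each consensus string, for promoter CTCF peaks with all 6 lists (n = 1612), with none (n = 984) and for windows at all 21938 protein-coding promoters (bars, with 95% Wilson intervals). The CTCF string stands at 32.3% where no factor overlapped and 11.8% where all 6 did, and the GC box in the opposite order, at 3.15% and 12.7%.

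Strings of other factors were searched in the same windows on both strands, and a match describes letters and not a bound site. The RUNX string (TGTGGTT or TGCGGTT) was present in 4.53% of the regions with all 6 lists, 11.1% of those with none and 4.48% of all protein-coding promoters. In these windows around the CTCF centre, the RUNX string was less frequent with all 6 lists than with none, by -6.55 points (interval -8.85 to -4.42). Only 49.95% of LP and 45.31% of Phase 1 RUNX1 centres lay within 100 bp of the CTCF centre. The count therefore does not say how often the string lay under RUNX1 peaks. The ETS string CCGGAAGT was present in 4.47%, 0.610% and 3.04%, and the GC box GGGGCGGGG in 12.7%, 3.15% and 12.4%. The E-box CACGTG gave 6.64%, 3.25% and 5.66%. CCAAT was less frequent at the regions (20.0% with all 6 and 17.2% with none) than at promoters in general (31.7%). The consensus strings of NRF1 and YY1, ACTACAA (ZFP143) and TGACGTCA (CRE) were each present in under 3% of the windows of every set. Most of these strings hold a CpG, and the sets differ in CpG and GC content.

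The string leaned towards the direction of the gene near starts. It was on the strand of the gene in 358 of 633 regions (56.6%, interval 52.7% to 60.4%), in 129 of 190 with all 6 lists (67.9%, 61.0% to 74.1%) and in 159 of 317 with none (50.2%, 44.7% to 55.6%). Within 200 bp before the start it was 134 of 199 (67.3%, 60.6% to 73.5%). These sets share regions, and the direction of the string at promoters in general was not counted.

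The lists from cells with guides give a partial view, as few RUNX1 peaks remained in them. In LP, RUNX1 peaks of sgCont overlapped 110 of the 3275 regions (against 0.635% of all LP CTCF peaks), and those of sgCTCF overlapped 69 (against 0.474%). Of 107 sgCont promoter RUNX1 peaks that overlapped a promoter CTCF peak, 48 had a counterpart in sgCTCF (44.9%, interval 35.8% to 54.3%). Of 382 at promoters without a CTCF peak, 237 were (62.0%, 57.1% to 66.8%), and over all 975 sgCont RUNX1 peaks the share was 59.1%. The difference was -17.2 points (-27.4 to -6.52). Counted the other way, from the sgCTCF list to sgCont, the shares were 47 of 66 and 238 of 339, a difference of 1.01 points (-11.7 to 11.8), and 65.9% over all sgCTCF peaks. Put as losses and gains, 59 peaks were in sgCont only and 19 in sgCTCF only at promoter CTCF peaks, against 145 and 101 at promoters without CTCF. The median sgCont score was 26.7 at the former and 28.6 at the latter, and the study describes these libraries as made from few cells and noisier than usual.

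The 3 highest sgCont RUNX1 peaks missing from sgCTCF were at Desi1 (a deSUMOylating enzyme; 58.0), Nub1 (a regulator of NEDD8; 56.8) and Pim1 (a serine/threonine kinase; 47.1). All 3 regions had all 6 factor peaks in the cells without guides, with LP RUNX1 scores of 457, 498 and 757. The region at Pim1 lay 215 bp before its start. A second region of Pim1, 119 bp before another annotated start, had CTCF scores of 247 and 385 and a p300 peak in Phase 1 only (212).

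Counted by presence alone, most Med12 peaks at these regions were found in both sgCont and sgCbfb in Phase 1. The Med12 lists overlapped 1679 regions in sgCont (51.3%, against 9.83% of all LP CTCF peaks) and 1754 in sgCbfb (53.6%, against 13.4%). Peaks were 255 bp wide in sgCont and 311 bp in sgCbfb, and wider peaks meet more regions at a 1 bp overlap. Of 1633 sgCont promoter Med12 peaks at promoter CTCF peaks, 1539 were kept in sgCbfb (94.2%), against 5063 of 5521 at promoters without CTCF (91.7%), a difference of 2.54 points (interval 1.12 to 3.82). Over all sgCont Med12 peaks 67.8% were kept. From sgCbfb to sgCont, where 71.4% of all peaks were found, the difference was -0.921 points (-2.50 to 0.521), so the direction depended on the list from which it was counted. As losses and gains, 94 peaks were in sgCont only and 149 in sgCbfb only, against 458 and 423 at promoters without CTCF. Of the T lineage regions named above, Thy1 (37.9), Tcf3 (121), Bcl11b (16.7) and Tox (24.2) had a Med12 peak in sgCont only. Lat (65.2 in sgCont and 28.3 in sgCbfb) and Hhex (55.7 and 46.1) had one in both. RUNX1 in Phase 1 overlapped 43 regions in sgCont (against 0.643%) and 74 in sgMed12 (against 0.8%). Of 41 such promoter peaks 27 were kept in sgMed12 (65.9%), against 97 of 128 without CTCF (75.8%) and 71% of all, and the difference of -9.93 points had an interval of -26.6 to 5.04. From sgMed12 to sgCont, where 52.6% of all peaks were found, it was 6.34 points (-5.45 to 18.9).

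Notch1-IC peaks were few at the promoter CTCF peaks, as its lists were short, with 1585 peaks in LP, 152 in Phase 1 and 352 in Phase 2. They overlapped 27 regions in LP (0.824%, interval 0.567% to 1.20%, against 0.617% of all LP CTCF peaks), 4 in Phase 1 (against 0.0485%) and 1 in Phase 2 (against 0.0639%). LP cells were grown without the ligand DLL4, yet theirs was the longest of these lists. The LP peaks are therefore given as called, and what they reflect was not tested. The 4 in Phase 1 were at Hjurp, Cdca4, Plcxd2 and Zfand5, with scores of 26.1, 19.2, 16.4 and 17.2, and the 1 in Phase 2 was at Lat. All 5 regions had the 6 factor peaks.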

How the data were processed

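The authors aligned ChIP-seq reads to mm10 with Bowtie 1.1.1, called peaks with HOMER in factor style against a control, and kept those that recurred in its 2 replicates under HOMER's version of the IDR procedure (per the methods and the submitters' processing notes). The deposited value of a peak is the authors' normalized peak score, of 15.0 or more, with the scale not stated in the file headers. Of the 38 samples in 19 groups of 2 replicates, 34 samples stand behind the 17 lists used, and 4 inputs have no list. Read depth was not used.

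Overlaps of at least 1 bp were counted with Python 3.11.15, numpy 2.4.6 and pandas 2.3.3, and intervals were computed and tested on simulated data. No p-value was computed. Genes came from the accession in the deposited annotation through the RefSeq table for GRCm38.p6, then GENCODE M21, and gene promoters from GENCODE M21. Strings and sequences were read with pysam 0.24.0 from GRCm38. Strings were not searched on unplaced sequences. The alternatives tried were a 50% overlap, a minimum score of 30, promoters from GENCODE, lists of equal length, 5 CTCF score classes, 1 peak for each gene, 1 mismatch or a 100 bp window for the string, gene promoters of 500 bp to each side of the start, only promoters with p300 or Med12, counting from the guide list to sgCont and, after seeing the data, a 1000 bp margin and a string with 1 letter freed.

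Loci were named by a rule: the 10 highest LP CTCF scores, the 3 highest one-stage peaks for each factor and stage, the 3 highest CTCF scores without a factor, the 3 highest sgCont RUNX1 peaks missing from sgCTCF, and genes of 3 lists (T cell and Notch, CTCF and cohesin, Mediator and p300). Of the loci and marker genes so chosen, 2 are not reported here. The regions and gene lists were chosen with earlier results of these data known.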

Additional observations from a re-analysis of the deposited data

How the results depend on the processing

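Of 101 alternative values for 20 differences, 87 gave the same call, with an interval on the same side of 0 or, as before, across it. The one-stage comparisons were the least stable. For Med12 (-2.01 points) the difference was 5.18 with 1 peak for each gene, 7.28 with a 50% overlap, -11.0 with a minimum score of 30, -7.43 over CTCF score classes and -7.19 with a 1000 bp margin, each with an interval that left out 0. For RUNX1 (10.3 points) it was -0.951 with a minimum score of 30 and 3.89 over score classes, and for p300 (-7.59 points) it was -1.49 with 1 peak for each gene, -2.72 with a 50% overlap and 2.90 with lists of equal length, all with intervals across 0. The causes were not tested. Counted from the guide list to sgCont, the difference was 1.01 points for RUNX1 in sgCTCF and -0.921 points for Med12 in sgCbfb. At gene promoters with p300 or Med12, the Phase 1 differences were 1.07 points for Med12 and 0.263 points for p300. The 6 differences between promoter and other CTCF peaks stayed between 34.3 and 62.7 points, and the string difference between -28.1 and -16.3 points. The string with a freed letter and the 1000 bp margin were chosen after seeing the data, as were all alternatives for the string between regions with none and all 6 lists (14.0 to 22.9 points). No paired analysis was possible because each list combines its 2 replicates, and for the same reason no replicate could be left out. A peak missing from a short list can lie under its score limit.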
